A study of Mus musculus with 4 samples.

Results

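Natural killer (NK) cells decide whether to attack a target by summing signals from activating and inhibitory receptors encoded in the germline. A set of 10 such genes was examined here for binding of XBP1s, the transcription factor made from spliced Xbp1 mRNA in the unfolded protein response. They are Ncr1, Klrb1c, Klrk1, Klrd1, Klrc1, Cd244a, Cd226, Cd96, Slamf7 and Itgb2, listed by name, with no measured value in the rule. The list was nevertheless chosen with earlier results of these data known, so its counts are descriptions. Peaks were given to a gene where the authors' annotation names it as the nearest, whatever the distance. By that rule 4 of the 10 genes had a peak, namely Cd244a, Itgb2, Ncr1 and Klrd1, and they took 5 of the 4890 peaks. Over 21900 protein-coding genes the share with a peak was 17.8%. The exact 95% interval on 4 of 10, from 12.2% to 73.8%, includes that share.

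The series holds 4 ChIP-seq libraries from mouse splenic NK cells, 2 immunoprecipitations with an antibody against XBP1s and 2 inputs. Both groups came from C57BL/6 mice that the design text names Il15TgXbp1f/f, which carry an IL-15 transgene and floxed Xbp1 alleles, and no Cre or transgene promoter is named. Both had been treated with IL-15, a cytokine that NK cells need to survive, at 50 ng/ml for 1 h. The labels used here state no age, sex or pooling of animals, and an untreated or Xbp1-deleted arm was not analysed here. All values come from 1 combined peak list without any column per library, so no peak has a replicate error, the depth is unknown, and no difference was tested. The score in the list is 0 for every peak, and the width of a peak, which is an interval of the genome in the list and is called an interval in the plots, is the only size it gives.

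NK receptors work in families. NKG2D, NK1.1, CD94 and NKG2A are C-type lectin-like proteins encoded together in the NK gene complex, and CD94 pairs with NKG2A into an inhibitory receptor for a nonclassical class I molecule. The receptors 2B4 and CRACC belong to the SLAM family, which signals through small SH2 adaptors. DNAM-1 and CD96 compete for nectin-like ligands, and the beta-2 integrin chain pairs with alpha chains to form adhesion receptors such as LFA-1.

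The promoters of these genes are shown first because the positions of the peaks are read against them. RefSeq sequences (GRCm38.p6, the assembly of mm10) were found for 7 of the 10 genes. Klrd1, Cd226 and Itgb2 had no entry. The 250 bases before the start site are printed 5′ to 3′ on the gene's strand for 3 members that hold ACGTG, the core of sites bound by XBP1, and for Ncr1, the member with the most distant peak. Fermt3, an integrin activator described with the partners of the integrin, is shown for contrast because a peak overlaps its window. Capitals mark ACGTG and TGTGGT, the core letters of sites bound by RUNX factors, on either strand.
Cd244a, chr1:171558943-171559192, plus strand: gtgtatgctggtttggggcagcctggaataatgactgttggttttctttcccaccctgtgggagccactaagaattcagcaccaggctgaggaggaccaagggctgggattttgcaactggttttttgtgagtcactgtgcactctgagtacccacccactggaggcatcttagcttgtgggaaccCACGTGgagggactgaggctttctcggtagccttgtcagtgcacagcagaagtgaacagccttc
Klrk1, chr6:129623865-129624114, minus strand: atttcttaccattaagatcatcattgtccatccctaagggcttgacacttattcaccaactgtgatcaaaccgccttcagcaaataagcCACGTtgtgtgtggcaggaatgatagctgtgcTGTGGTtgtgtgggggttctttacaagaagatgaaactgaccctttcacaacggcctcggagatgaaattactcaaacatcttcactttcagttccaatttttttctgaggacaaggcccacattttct
Slamf7, chr1:171649000-171649249, minus strand: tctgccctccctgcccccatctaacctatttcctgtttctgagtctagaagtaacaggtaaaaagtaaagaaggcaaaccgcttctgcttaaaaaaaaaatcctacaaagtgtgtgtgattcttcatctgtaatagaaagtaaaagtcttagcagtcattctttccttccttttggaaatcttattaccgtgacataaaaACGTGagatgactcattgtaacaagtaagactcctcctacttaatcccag
Ncr1, chr7:4337465-4337714, plus strand: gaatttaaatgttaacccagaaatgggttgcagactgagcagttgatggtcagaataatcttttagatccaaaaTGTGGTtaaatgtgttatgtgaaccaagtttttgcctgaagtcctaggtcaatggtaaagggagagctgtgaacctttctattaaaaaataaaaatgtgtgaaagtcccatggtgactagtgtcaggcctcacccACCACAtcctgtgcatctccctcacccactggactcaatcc
Fermt3, chr19:7019470-7019719, minus strand: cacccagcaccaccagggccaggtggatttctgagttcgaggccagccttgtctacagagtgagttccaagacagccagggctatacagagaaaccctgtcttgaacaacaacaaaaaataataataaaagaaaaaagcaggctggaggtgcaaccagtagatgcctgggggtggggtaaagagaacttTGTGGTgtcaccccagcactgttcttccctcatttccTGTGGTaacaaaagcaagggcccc

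Cd244a, which encodes the SLAM family receptor 2B4, had the widest peak of the 10 genes and was the only one with 2 peaks. The wide peak spanned 1061 bp (chr1:171560036-171561096) and the narrow one 290 bp (chr1:171561800-171562089), 703 bp farther on. Both lay in intron 1 of 8, with centres at 1373 and 2751 bp downstream of the transcription start site (TSS). The wide peak was wider than 94.3% of all peaks and than 93.9% of the 1037 peaks in introns, whose median width was 339 bp. The narrow one was wider than 32.2% of all peaks. The wide peak began 843 bp after the start site, and so left the promoter window uncovered.

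The uncovered Cd244a promoter holds the 8 letters CCACGTGG from 65 to 58 bases before the start site, which contain ACGTG on both strands. Of 32851 promoter windows of 300 bp, running from 250 bases before a start to 50 after it, 0.785% hold those 8 letters, and 22.1% of these 258 windows overlapped a peak. Among windows without the letters 10.8% overlapped one. The Cd244a window has only 2 CpG dinucleotides, and among windows with 5 or fewer the shares were 1.89% (1 of 53) with the letters and 0.4% without. A match of letters is a description and not a binding site. No genome sequence was used here, so the letters under the intron peaks were not searched.

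Slamf7, which encodes CRACC, had no peak named for it, but one of the widest distal peaks of the list lay next to it. A peak of 1310 bp (chr1:171629174-171630483) ended 1920 bp from the lower end of the gene (chr1:171632403-171653037). Because Slamf7 is on the minus strand, that end is its 3′ end. The authors' table names the peak for Mir7683, a microRNA whose RefSeq position is inside Slamf7, at a distance of 12072 bp from its start. The centre was 19170 bp from the Slamf7 start site, and the peak ranked 3 by width among 885 peaks beyond 5000 bp of a TSS. It also lay 43858 bp above the end of Cd244a, with the SLAM gene Ly9 in between, so its target among these genes cannot be told from position.

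The SLAM genes lie together on chromosome 1, from Cd244a to Slamf8, over 1.032 Mb. That stretch held 6 peaks (5.81 per Mb), compared with 1.81 per Mb over the 21 chromosomes. It also held 28 protein-coding genes, beside 21900 in all for 2703 Mb of chromosomes. The rates per Mb are not corrected for gene density. On the other side of Cd244a, outside that stretch, Alyref2, an mRNA export factor gene, had a promoter peak of 431 bp. Of the 9 SLAM genes, 1 was named for a peak, Cd244a, beside 17.8% of protein-coding genes at any distance. The peaks at the far side were named for Ncstn, a gamma-secretase subunit (1125 bp), Pigm, an enzyme of GPI anchor synthesis (675 bp), and Tagln2, an actin-binding protein (649 bp), none of them a receptor gene.

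**Figure D1:**
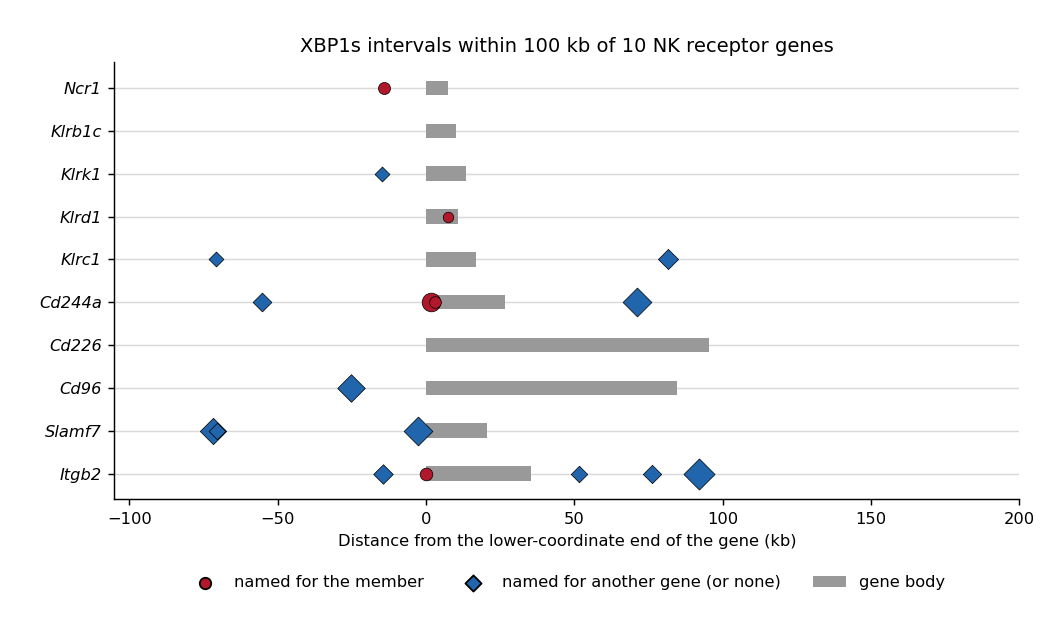
Each row is 1 receptor gene, with its body as a grey bar and the peaks within 100 kb placed by distance from its lower-coordinate end (kb). Circles are peaks named for that gene and diamonds peaks named for another gene or none, with larger symbols for wider peaks; Klrb1c and Cd226 have neither, and the large diamond at Slamf7 is the 1310 bp peak.

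Itgb2, which encodes the beta-2 integrin chain CD18, was the only member with a peak at its promoter. The peak spanned 371 bp (chr10:77530102-77530472), was annotated as a promoter and was centred at -83 bp from the TSS. It covered the lower end of the gene (chr10:77530329-77565708), beginning 227 bp before the first base of the gene and ending 143 bp after it. Its width lay near the middle of the list, above 49.5% of all peaks and 43.6% of the 2571 promoter peaks. Within 100 kb it had 5 peaks, beside 4 for Cd244a and 3 for Slamf7, but within 250000 bp it had 5 and each of those 2 had 6. The others were a 484 bp peak with no gene name, on the promoter of a transcript that RefSeq gives to Fam207a, and peaks at Pttg1ip (284 bp), Sumo3, a SUMO protein gene (401 bp), and Ube2g2, a ubiquitin-conjugating enzyme of ER-associated degradation (1559 bp). The Ube2g2 peak was thus wider than that of Itgb2.

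Ncr1, which encodes the activating receptor NKp46, had 1 peak of 314 bp (chr7:4323393-4323706). It was intergenic, centred at -14166 bp from the TSS, and its width was above that of 51.8% of the 885 peaks beyond 5000 bp. Klrd1, which encodes CD94, had 1 peak of 190 bp (chr6:129595332-129595521) in exon 4 of 6, centred 3616 bp downstream of the TSS. This was the narrowest of the 5, and only 8.08% of all peaks were narrower. Ncr1 therefore had a peak at a distance and Klrd1 a short one inside the gene, and neither had one at its start.

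**Figure D2:**
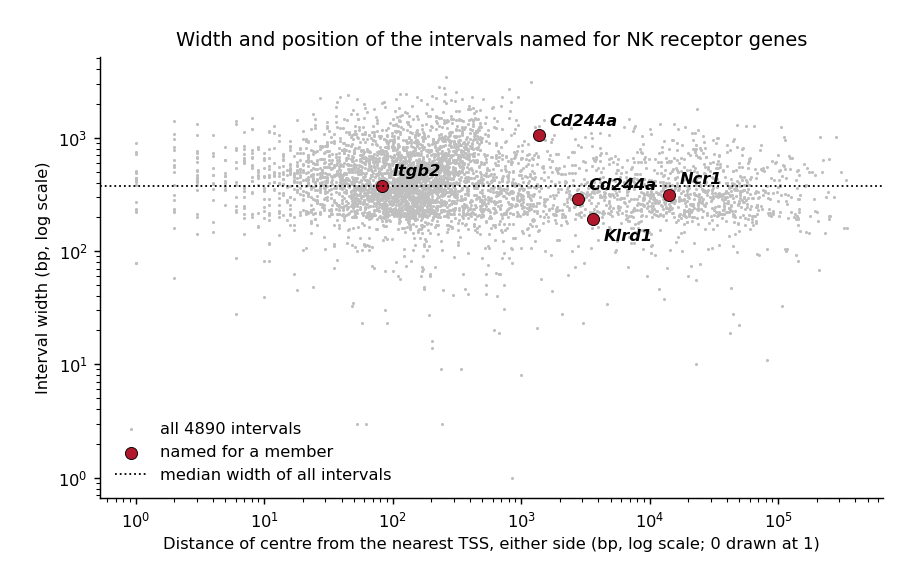
Each grey point is 1 of 4890 peaks by its distance from the nearest TSS and its width (bp, both axes logarithmic), and red points are the 5 peaks named for members. The wide Cd244a peak stands well above the median of 373 bp (dotted line), Itgb2 sits beside it, and the other 3 lie below.

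The 5 member peaks had a median width of 314 bp, against 373 bp over the whole list (interquartile range 258 to 578), and 1 of the 5 was wider than that median. Of all peaks 74.4% were centred within 1000 bp of a TSS, but 1 of the 5 member peaks was. By the same window, Itgb2 alone of the 10 members had a peak, and the share over protein-coding genes was 15.1%. Within 5000 bp, 3 of the 10 had one (30.0%, exact 95% interval 6.67% to 65.2%), against 15.9%. Among the widest 50% of peaks only Cd244a had one, against 9.84%.

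The other members had no peak named for them. Klrk1 encodes NKG2D, a receptor for stress-induced ligands, and the nearest peak to it was the Klrd1 peak, 14802 bp from the gene. Klrc1 encodes NKG2A, and its nearest peak was one of 529 bp (chr6:129747329-129747857) named for Klri2, 64477 bp away. Cd96 encodes a receptor for nectin-like ligands that is mostly described as inhibitory in mice. A 1183 bp peak at the promoter of Plcxd2 ended 24656 bp from its 3′ end, 109843 bp from the Cd96 start.

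Klrb1c and Cd226 stood farthest from any peak. Klrb1c encodes NK1.1, the antigen by which NK cells of C57BL/6 mice are usually stained, and its nearest peak was at Itfg2, 353204 bp away. Of protein-coding genes, 24.1% were farther from a peak. Cd226 encodes the activating receptor DNAM-1, and its nearest peak, at Timm21, was 4224914 bp away. Only 1.33% of genes were farther (287 of 21631 with a peak on their chromosome). Over all these genes the median gap from gene to nearest peak was 76371 bp, and over the 10 members it was 14405.5 bp.

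Per Mb, the NK gene complex held peaks at about the rate of the chromosomes. The run of 25 Klr genes around Klrk1, from Klrb1a to Klra2, spanned 2.638 Mb and held 5 peaks (1.90 per Mb, beside 1.81 per Mb over the chromosomes). The run held 48 protein-coding genes, beside 21900 in all for 2703 Mb, and these rates are not corrected for gene density. Of the 5 peaks, 2 were named for Klr genes, Klrd1 and Klri2, and 3 of 263 to 370 bp for the noncoding gene 2310001H17Rik. No Klra gene, the Ly49 family of class I receptors, was named for a peak. Klra and Klrc genes have near-identical copies, and the treatment of reads that match several copies is not stated, so missing peaks there are uncertain.

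Peaks of any name were then counted by position. A peak centre lay inside 2 of the 10 members, Cd244a and Klrd1, against 14.4% of protein-coding genes. Counting up to 5000 bp from either end, 4 had one, Slamf7 and Itgb2 being added, against 23.3%. The count was 7 within 50000 bp (43.1% of genes) and 8 within 100000 bp (53.7%). It was still 8 within 250000 bp (69.3%), with Klrb1c and Cd226 left without. The merged neighbourhoods of the members, 7 stretches of 1.822 Mb in all, held 13 peaks (7.14 per Mb), of which 5 were named for members and 8 for other genes or none. Stretches around genes are compared here with whole chromosomes that include gene-poor regions, and Klrk1, Klrd1 and Klrc1 share peaks, as do Cd244a and Slamf7.

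The member promoters with a RefSeq entry were poor in CpG dinucleotides, and across the genome windows poor in CpG seldom overlapped a peak. Itgb2, the only member with a promoter peak, is not among them, nor are Klrd1 and Cd226. In the 8 member windows (7 genes, of which Ncr1 has 2 start sites) there were 0 to 4 CpGs, with a median of 1.5. Ncr1 had 0 in both, Klrb1c and Klrc1 had 1, Cd244a 2, Slamf7 3, and Klrk1 and Cd96 4. None of the 8 overlapped a peak, against 10.9% of all windows. Over all 32851 windows the median was 7, and over the 3569 that overlapped a peak it was 25 (interquartile range 18 to 31).

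**Figure D3:**
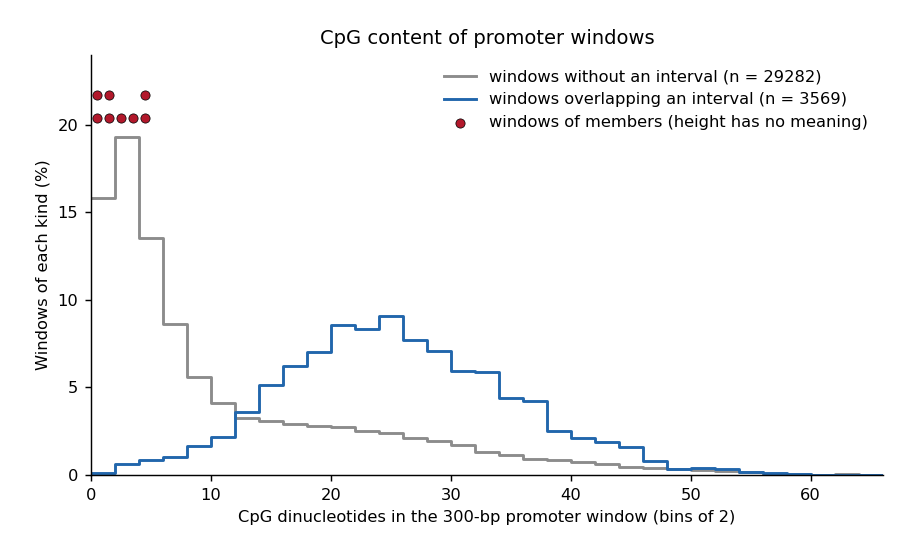
The lines give the share (%) of 300 bp promoter windows by CpG count, in bins of 2, for windows that overlap a peak and those that do not; red points mark the 8 member windows. All member windows lie between 0 and 4 CpGs, below nearly all windows with a peak.

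Windows as poor in CpG as those of the members rarely overlapped a peak. Of 12496 windows with 4 or fewer CpGs, 41 did (0.328%), compared with 24.9% of 13594 windows with over 10 CpGs. For these members, without Itgb2, the count was 0 of 8. Most windows in every CpG range overlapped no peak, and the highest share was 29.5%, for windows with over 20 CpGs. The part of CpG content in the result was not tested.

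The letters of several motifs were searched on both strands of the same windows. ACGTG was found in 3 of the 7 genes, Cd244a, Klrk1 and Slamf7. It was in 19.6% of all windows and 10.8% of those with 5 or fewer CpGs. CCACG, part of the ER stress response element, was found in Cd244a and Klrk1, and overlapped ACGTG in both genes. CCACG was in 32.8% of all windows and 13.1% of those with 5 or fewer CpGs. CCAAT, the other part of that element, was found in Klrk1 (37.4% of all windows). Over all windows, 20.3% of those with ACGTG overlapped a peak and 8.56% of those without. Among windows with 5 or fewer CpGs these shares were 0.453% (7 of 1545) and 0.4% (51 of 12765).

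TGTGGT was found in 5 of the 7 genes (Cd96, Klrb1c, Klrc1, Klrk1 and Ncr1), against 16.8% of all windows and 22.0% of those with 5 or fewer CpGs. TTCNNNGAA, the letters of STAT sites, was found in Cd96 (8.30% of all windows). GGTGTGA, from T-box sites, was found in none of the 7 (3.98%). GGAA, the core of ETS sites, was found in 6 of the 7, all but Ncr1, and in 96.0% of all windows.

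The partners of these receptors were counted in the same way from lists of 124 other genes, of which 31 had a peak at any distance (17.8% over protein-coding genes) and 23 within 5000 bp (18.5%, against 15.9%). Of 22 other Klr receptors, 0 had a peak within 5000 bp (exact 95% interval up to 15.4%) and 2 at any distance, Klri2 and Klrg1. Of 24 other surface receptors, only Tnfrsf9, which encodes the costimulatory receptor 4-1BB, was named for one, with 2 peaks of 1107 and 384 bp. By position, within 5000 bp of either end, the counts were 1 of 22 (Klrg1) and 3 of 24 (Pdcd1, Tnfrsf9 and Tmigd3), against 23.3%. Missing peaks at the near-identical Klra and Klrc copies are uncertain here too. No test compared one list with another.

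A peak was named within 5000 bp for 6 of 25 receptor adaptors and proximal signalling genes, called the adaptors below. The exact 95% interval, from 9.36% to 45.1%, includes the share over protein-coding genes, 15.9%. Hcst encodes DAP10, the adaptor of NKG2D, and had a peak of 362 bp centred at -456 bp from the TSS (chr7:30420130-30420491). Tyrobp, which encodes the adaptor DAP12, had one of 246 bp centred at -2579 bp and another of 345 bp at -19443 bp. The kinase gene Lck had 2 peaks, of 415 and 214 bp. Vav1, which encodes a signalling protein downstream of activating receptors, had peaks of 348 and 345 bp. Cblb, a ubiquitin ligase that restrains NK cells, had one of 351 bp at its promoter and 2 in introns, and Lat2 had 2 of 291 and 272 bp.

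Of 10 inhibitory phosphatases, kinases and their scaffolds, 3 had a peak named for them within 5000 bp (15.9% of protein-coding genes), and 7 had one by position, within 5000 bp of either end (23.3%). The widest named was at Pag1, a membrane scaffold that recruits the kinase CSK (1063 bp, 4860 bp downstream of the TSS). Csk itself had one of 349 bp, and Ptpn11, which encodes the phosphatase SHP-2, one of 290 bp. Among 16 ligands of the members that were matched, a list that includes the self-ligand Slamf7, 1 had a peak within 5000 bp. This was Icam1, a ligand of LFA-1, with a peak of 60 bp, and Icam2 had one of 237 bp at -5144 bp.

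Of 17 genes of integrin activation and the cytoskeleton, 9 had a peak within 5000 bp (52.9%, exact 95% interval 27.8% to 77.0%, against 15.9%). Only those of Tln1, Dock8 and Rap1b were annotated as promoter peaks, and the others lay in introns or 5′ UTRs. Within 1000 bp of the TSS, however, 8 of the 17 genes had a peak (47.1%, against 15.1% of protein-coding genes). Tln1, which encodes the integrin activator talin, had the widest (987 bp), annotated to the promoter of Creb3, which starts beside it. The others named were Dock8 (462 bp), Fermt3, which encodes kindlin-3 (456 and 372 bp), Apbb1ip, which encodes RIAM (419 bp), and Dock2 (353 bp). Itgal, whose product pairs with CD18 into LFA-1, had a peak of 133 bp centred 87 bp downstream of its TSS, so both chains of LFA-1 had a promoter peak. Of 12 other integrin genes, 3 had a peak within 5000 bp, Itgae (309 bp), Itgb7 (212 bp) and Itgal.

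For genes with a RefSeq promoter entry, CpG content and promoter overlap did not rank these lists in the same order. The median was 2 CpGs per window for the other Klr receptors, 4 for the other surface receptors, 7 for the adaptors and 16 for the integrin activation genes, and 0%, 0%, 6.45% and 36.8% of their windows overlapped a peak. The ligands had a median of 8 CpGs with 7.14% of windows overlapping, and the inhibitory phosphatases and kinases 10 with 15.4%. The integrins had a median of 11, above the adaptors, and 0 of their 8 windows overlapped a peak. Over all promoter windows the share overlapping a peak was 10.9%. Only 8 of the 12 integrin genes had a RefSeq entry. Itgal, which had a promoter peak, was not among those with an entry, so the count leaves it out. The Fermt3 window, with 3 CpGs, overlapped its peak.

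**Figure D4:**
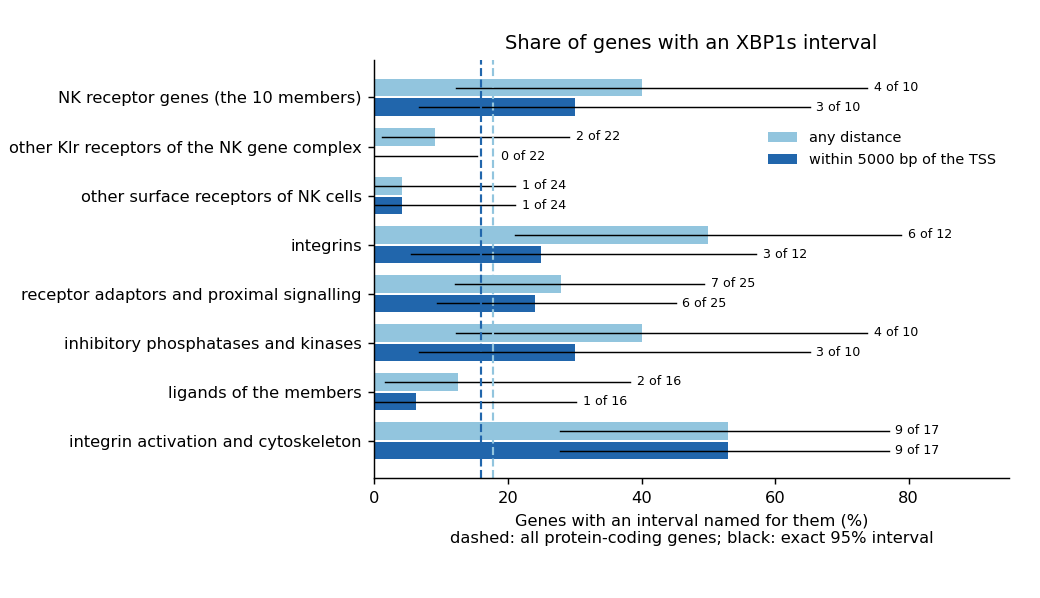
Bars give the share of genes (%) in each list with a peak named for them, at any distance (light) and within 5000 bp of the TSS (dark), with exact 95% intervals as black lines and the count at the end. Dashed lines mark all protein-coding genes at 17.8% and 15.9%. The other Klr receptors, the other surface receptors and the ligands lie below them, and integrin activation genes reach 52.9%. At any distance the intervals of those lower lists include 17.8%.

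Markers of other blood cells were counted at any distance, where the share over protein-coding genes was 17.8%. A peak was named for 1 of 10 T cell genes (Cd3d, 217 bp), 0 of 10 B cell genes (exact 95% interval up to 30.8%) and 2 of 10 myeloid genes (Cd68, 373 bp, and Itgam, which NK cells also express, 318 bp). By position, within 5000 bp of either end, the counts were 2 (Cd3d and Cd3g), 1 (Cd79a) and 1 (Cd68), against 23.3%. A peak list measures occupancy and not expression, so it cannot test the labelled cell type.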

How the data were processed

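XBP1s ChIP-seq peaks from mouse NK cells were analysed as 1 combined list. Per the file headers, the authors annotated the intervals with HOMER on mm10. The tools listed, per the submitters' processing notes, were MACS2 2.2.7.1 as peak caller, Bowtie2 2.4.5 as aligner, HOMER (versions 4.11 and 4.11.1), and Trim Galore 0.6.7 with FastQC 0.11.9. Not given in the sources used here are the call thresholds, the handling of reads that match several places, and how the libraries were combined. The deposited peak score is 0 in all 4890 rows and was not used. Depth per library is unknown.

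Genes were matched by Entrez number to RefSeq GRCm38.p6 (coordinates 1-based). Of the listed ligands, Raet1a, Raet1b and Raet1c were not matched. Promoter windows are RefSeq's 250 bases before and 50 after a start, and a peak overlapped a window when they shared at least 1 bp. Intervals on shares are exact Clopper-Pearson and cover counting error only, and genes are not independent replicates. No test was run, because the members and lists were chosen with earlier results of these data known. All 10 members are named, with every gene named for a peak within 100 kb of one and up to 5 genes per list with the widest peaks within 5000 bp. Tyrobp, Rap1b, Klri2, Klrg1, Icam2, the markers the genes named by position only and genes at the far side of the SLAM cluster were named after their values were seen. CpG counts, gaps to the nearest peak and CCACGTGG were likewise added then. Interval functions were tested on simulated data. Intervals were computed with SciPy 1.17.1, tables with pandas 2.3.3 and figures with matplotlib 3.10.9 (Python 3.11.15).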

Additional observations from a re-analysis of the deposited data

How the results depend on the processing

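By the authors' nearest-gene names, the count of members with a peak was 4 at any distance and stayed at 3 or 4 with a window of 5000 or 50000 bp or with segments of at least 200 bp (15.9%, 17.4% and 16.5% of protein-coding genes). It was 1 within 1000 bp (Itgb2) and 1 among the widest 50% of peaks (Cd244a), and the number of member peaks fell from 5 to 1 in both. When genes were assigned by position, with a peak centre inside the gene or within 5000 bp of either end, the count was again 4, but Slamf7 entered and Ncr1 left, and the share over protein-coding genes was 23.3%. Genes of the other lists with a peak numbered 31 at any distance, 18 within 1000 bp and 15 among the widest 50%. Peaks in the members' neighbourhoods numbered 10, 13 and 18 with flanks of 50000, 100000 and 250000 bp. Motif counts in members were the same in the 250 bases before the start alone. The Klr cluster held 221 peaks when bounded by every gene that the RefSeq table lists under that name on chromosome 6, because some are listed far away, and 5 when bounded by the run around Klrk1, a boundary chosen after seeing the data. Of 71 values recomputed, 47 stayed within 1.5 times the main count. Replicates could not be left out, because the list has no column per library. No paired analysis was possible because the list carries no replicate numbers. The planned comparison of proteins was not run for want of sequences. Without a strength per peak or a depth, weak and absent binding cannot be told apart at members without a peak.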
